A study of Mus musculus with 4 samples.

Results

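The Btg, Tob and Zfp36 genes encode 2 families of proteins that bring the deadenylase machinery to messenger RNA. The 8 members described here are Btg1, Btg2, Btg3, Tob1, Tob2, Zfp36, Zfp36l1 and Zfp36l2, of 17673 named genes measured. They were chosen from a list of symbols with their values on these arrays already known, so their own levels and differences are given as a description. Each was matched to a probe set that carries exactly 1 gene symbol, and each had 1 such probe set. The samples were microglia, the resident macrophages of the brain, taken from the whole brain of C57BL/6J males. The control group had been given PBS and the allergy group OVA, and brains were collected 1 day after challenge by the nose, either on postnatal day 30 (P30) or on day 70 (P70). The 4 groups were therefore PBS and OVA at each age, and in each of them material of 4 samples was combined and measured on a single array. With no replicates no test was made, and the number of arrays limits the precision of every value.

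Btg and Tob proteins share an amino-terminal domain that binds the Caf1 deadenylases Cnot7 and Cnot8 of the CCR4-NOT complex, and they restrain cell division. Zfp36 proteins bind AU-rich elements in the untranslated tails of cytokine and immediate early mRNAs through a pair of CCCH zinc fingers and recruit the same complex, which shortens the poly(A) tail and starts decay of the mRNA. Zfp36 itself, also called tristetraprolin, limits the output of tumour necrosis factor by macrophages, and its own mRNA is induced quickly by the signals that induce its targets.

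Of the members, 7 were expressed, meaning that the mean of their 4 log2 intensities reached 7.18, a floor set at the midpoint of all named genes; 8837 genes met this. These 7 lay above that floor on every array, so none entered through 1 group alone. Tob1 lay below it on all 4 arrays. The highest member value, 14.27 for Zfp36l1, was well under the highest values on the arrays, which lay between 19.74 and 19.93. Of the close relatives outside the list, the oocyte gene Btg4 and the Btg1 copies Btg1b and Btg1c on the X chromosome were below the floor on every array, at 5.38 to 6.04, 6.38 to 6.71 and 6.24 to 6.55. Zfp36l3, an X-linked gene known from the placenta, was at 7.17 and 7.24 at P30 and at 7.99 and 7.54 at P70, PBS first. Btg1b and Btg1c were looked up after the values were seen, and whether they share probes with Btg1 was not tested.

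The label of the cells was checked against markers. All 11 matched microglia markers of 12 were expressed, among them Siglech at 16.93 to 17.50 and P2ry12 at 13.28 to 15.65, and all 8 neuron, 10 of 11 endothelial and mural, and 6 of 8 astrocyte markers were below the floor on every array. Neutrophil genes were present on all arrays: 11 of 13 were expressed, and the summed intensity of the list at P30 was 71055 with PBS and 23470 with OVA, against 887528 and 755028 at P70. That of the 8 matched monocyte markers was between 2166 and 2292 at P30 and between 21907 and 24606 at P70. For the T and NK cell list it was between 1250 and 1632 and for the B cell list between 907 and 1030. Cd3d, Cd3e, Cd79a and Ms4a1 were below the floor on every array. Of the matched genes, 4 of 10 T and NK cell and 2 of 7 B cell markers were expressed. Klrb1c read between 7.67 and 8.83 and Cd79b between 8.14 and 8.91. Ttr, the thyroid hormone carrier of the choroid plexus, read 7.45 and then 9.32 at P30 and 7.90 and then 12.02 at P70, PBS first. Other markers of that list of 6 did not share this: Kl, Clic6, Folr1 and Otx2 were below the floor on every array. Kcne2 read 8.58 and 8.67 at P30 and 8.26 and 7.89 at P70, again PBS first. Fewer cells of a type and less RNA per cell cannot be told apart in such pools.

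The promoters of the 4 members that stood higher in OVA at P30 are printed here because these genes differed together. Each is the 250 bases before a RefSeq start, in build GRCm38.p6 and on the strand of the gene, and the table of RefSeq promoters held windows of 7 of the 8 members, all but Zfp36l2. Capitals mark matches to the core TGACG of the cyclic AMP response element, to the AP-1 site TGANTCA, to the CArG box bound by serum response factor and to the NF-kB site, each searched on both strands. These motifs were chosen after the values were seen.
Btg2 (chr1:134079156-134079405, - strand): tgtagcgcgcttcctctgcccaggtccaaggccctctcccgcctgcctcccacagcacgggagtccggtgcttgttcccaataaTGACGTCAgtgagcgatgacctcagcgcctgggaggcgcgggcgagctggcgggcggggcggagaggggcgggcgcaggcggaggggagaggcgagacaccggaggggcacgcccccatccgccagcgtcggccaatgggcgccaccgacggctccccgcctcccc
Btg1 (chr10:96616751-96617000, + strand): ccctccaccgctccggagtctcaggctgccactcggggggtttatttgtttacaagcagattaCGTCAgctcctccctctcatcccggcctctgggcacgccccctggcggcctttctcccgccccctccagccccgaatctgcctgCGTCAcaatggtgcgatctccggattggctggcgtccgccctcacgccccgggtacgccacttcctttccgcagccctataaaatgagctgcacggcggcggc
Zfp36 (chr7:28379229-28379478, - strand): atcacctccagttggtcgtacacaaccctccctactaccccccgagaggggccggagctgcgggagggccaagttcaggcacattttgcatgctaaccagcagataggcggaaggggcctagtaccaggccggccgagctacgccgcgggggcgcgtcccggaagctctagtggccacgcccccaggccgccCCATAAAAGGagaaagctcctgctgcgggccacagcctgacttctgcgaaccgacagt
Zfp36l1 (chr12:80113014-80113263, - strand): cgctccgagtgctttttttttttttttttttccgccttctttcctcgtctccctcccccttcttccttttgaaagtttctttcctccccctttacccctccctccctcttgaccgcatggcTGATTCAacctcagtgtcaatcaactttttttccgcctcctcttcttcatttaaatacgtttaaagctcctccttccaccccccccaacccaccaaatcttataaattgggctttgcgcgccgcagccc

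Each of the 4 windows held a different set of matches. In Btg2 the core occurred on both strands, overlapping as 1 full element TGACGTCA that begins 166 bases before the start; 1.55% of 32817 RefSeq windows of the same length hold the full element and 17.7% the core. In Btg1 the core occurred on the opposite strand, from 187 and from 103 bases before the start. The Zfp36 window held 1 CArG box, from 58 bases before the start, which 1.47% of windows hold. Zfp36l1 had 1 AP-1 match, from 129 bases before the start (6.75% of windows), and the lowest share of G and C of the 4 windows, 48.4% against 73.2% in Btg2, 65.2% in Btg1 and 64.8% in Zfp36. The median over all windows was 52.4%. None of the 4 windows held an NF-kB match. Among the members without such a difference, the Tob1 window held 1 core 96 bases before its start, 1 of 2 Btg3 windows held 1 NF-kB match (3.90% of windows), and the Tob2 window held none of the 4. Binding was not measured, and a match is a description of the letters.

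The first question was how OVA and PBS microglia compared at P30. Btg1, Btg2, Zfp36 and Zfp36l1 were all more than 2-fold higher in OVA, as 0.181% of the expressed genes were, whereas Btg3, Tob2 and Zfp36l2 stayed below 1.5-fold. Those 4 of 8 members stand beside a share of 0.656% of the expressed genes at least 1.5-fold higher at P30, and no member was at least 1.5-fold lower (0.917% of expressed genes). The median difference of the 7 expressed members was 1.27 log2 units, against -0.014 for all expressed genes. Because the members were picked with these values known, the gap to the background is no evidence about them.

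Btg2, an antiproliferative gene that p53 and growth factors induce, had log2 levels at P30 of 8.28 in PBS and 9.99 in OVA, and at P70 of 7.75 and 7.81. The OVA array at P30 stood apart, and the other 3 arrays lay within 0.53 units of each other. The OVA to PBS ratio at P30 was 3.26-fold, a difference of 1.71 that ranked 7 of 8837 from the highest. At P70 the difference was 0.056.

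Btg1, a gene of quiescent cells and of lymphocytes in particular, had levels at P30 of 10.77 with PBS and 12.30 with OVA, and at P70 of 9.21 and 9.64. Both P30 arrays were above both P70 arrays, and within each age the OVA array was the higher. The ratio of OVA to PBS was 2.90-fold at P30 (difference 1.53, rank 8 from the highest) and 1.35-fold at P70 (difference 0.44).

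Zfp36, tristetraprolin, read 11.03 with PBS and 12.30 with OVA on the P30 arrays, and 10.06 and 10.13 on the P70 arrays. Its order over the arrays was that of Btg1, with the P70 pair close together. The OVA array was 2.41-fold higher at P30, a difference of 1.27 with rank 12 from the highest, and 1.05-fold higher at P70.

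Zfp36l1, a paralogue that acts on AU-rich mRNAs in lymphocyte development and in blood vessel formation, read 14.27 with OVA and 12.98 with PBS at P30, and 12.94 and 12.46 at P70, again OVA first. OVA was above PBS at both ages, by 2.45-fold at P30 (difference 1.29, rank 11) and by a difference of 0.49 at P70. The OVA array at P70 and the PBS array at P30 were nearly level.

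The remaining members differed less. Zfp36l2, the third paralogue, had levels of 7.51 and 7.98 at P30 and of 8.03 and 8.25 at P70, PBS first; OVA was higher by 0.46 at P30 (rank 113 from the highest) and by 0.22 at P70. Tob2, an antiproliferative relative that also binds the poly(A)-binding protein, was between 7.19 and 7.33 on all arrays, just above the floor. Tob1 was between 5.46 and 5.87, so its differences of 0.41 at P30 and -0.13 at P70 are between levels below the floor. Neither Tob gene reached 1.5-fold in any comparison between 2 arrays as deposited. After centring each array on its median, Tob1 was 1.61-fold lower at P70 in OVA (-0.69) and its OVA difference at P70 minus that at P30 was -0.66, both between levels below the floor.

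Btg3, a family member that also binds the transcription factor E2F1, read 8.52 with PBS and 8.58 with OVA on the P30 arrays and 9.72 and 9.92 on the P70 arrays. It was the sole member that was higher at P70 than at P30 by at least 1.5-fold. Its assignment is uncertain. The identifier of its probe set names chromosome 17, whereas RefSeq places Btg3 on chromosome 16 and the transcribed pseudogene Gm7334 on chromosome 17; identifier and RefSeq named the same chromosome for 99.7% of 30099 probe sets with 1 symbol. A further probe set that lists both Btg3 and Gm7334, with chromosome 16 in its identifier, read 8.40 and 8.46 at P30 and 9.23 and 9.18 at P70, PBS first. It carries several symbols and was not counted as Btg3, and it was looked up after the values were seen. Both probe sets were higher at P70, by 1.20 and 0.84 in PBS and by 1.34 and 0.71 in OVA, and the OVA difference at P70 had opposite signs in them (0.20 and -0.058).

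**Figure D1:**
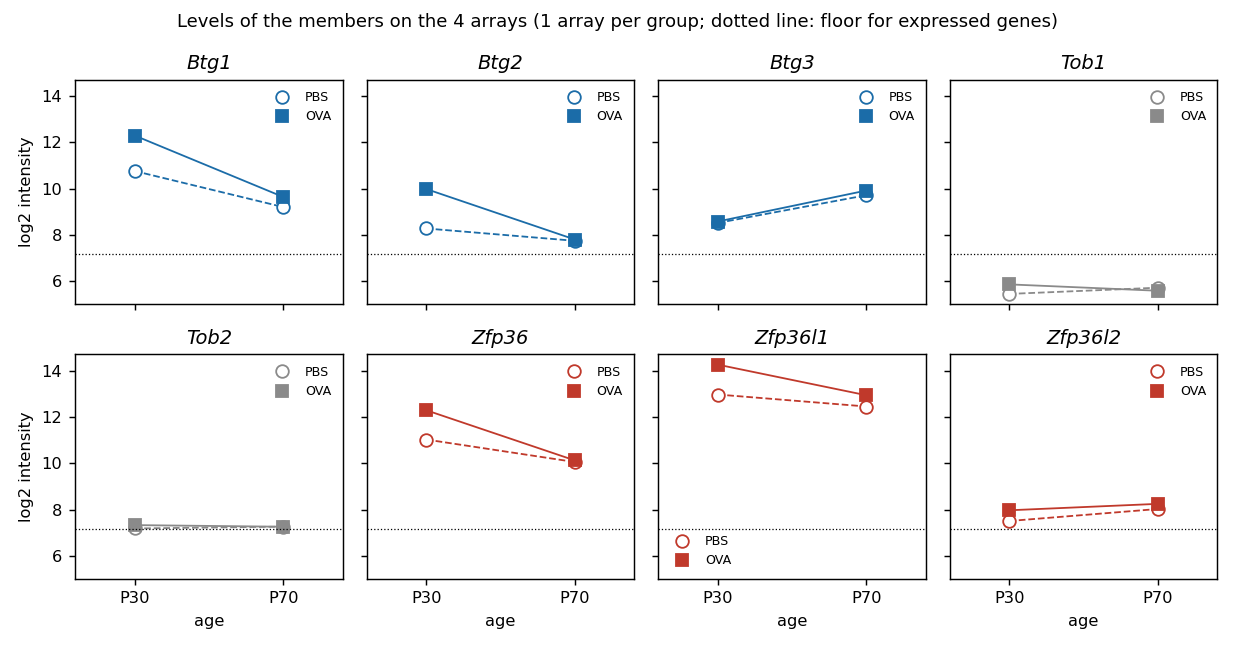
Log2 intensity (vertical axis) of each of the 8 members at P30 and P70 (horizontal axis), with open circles for PBS and filled squares for OVA, 1 array each. The dotted line is the floor of 7.18; the OVA value at P30 stands above the other 3 in Btg1 (12.30), Btg2 (9.99), Zfp36 (12.30) and Zfp36l1 (14.27), and Tob1 lies below the floor on every array.

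The same comparison at P70 gave small differences. None of the 8 members was at least 1.5-fold higher in OVA, as 4.04% of the expressed genes were, and none was at least 1.5-fold lower (1.24%). The median difference was 0.20 for the 7 expressed members and 0.091 for all expressed genes. Zfp36l1 (0.49) and Btg1 (0.44) had the largest differences, ranking 624 and 820 from the highest. Btg2 (0.056), Zfp36 (0.070) and Tob2 (-0.0056) were near 0, and their signs depended on the scaling. After each array was centred on its median, Btg2 was at -0.045 and Zfp36 at -0.031; Tob2 was at 0.060 after quantile normalization and at 0.030 after lowess centring. Such centring also moved the share of higher genes among all those past 1.5-fold at P70, from 76.4% to 53.0%. With it, 2.33% of the expressed genes stood at least 1.5-fold higher and 2.07% lower, and still none of the members.

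**Figure D2:**
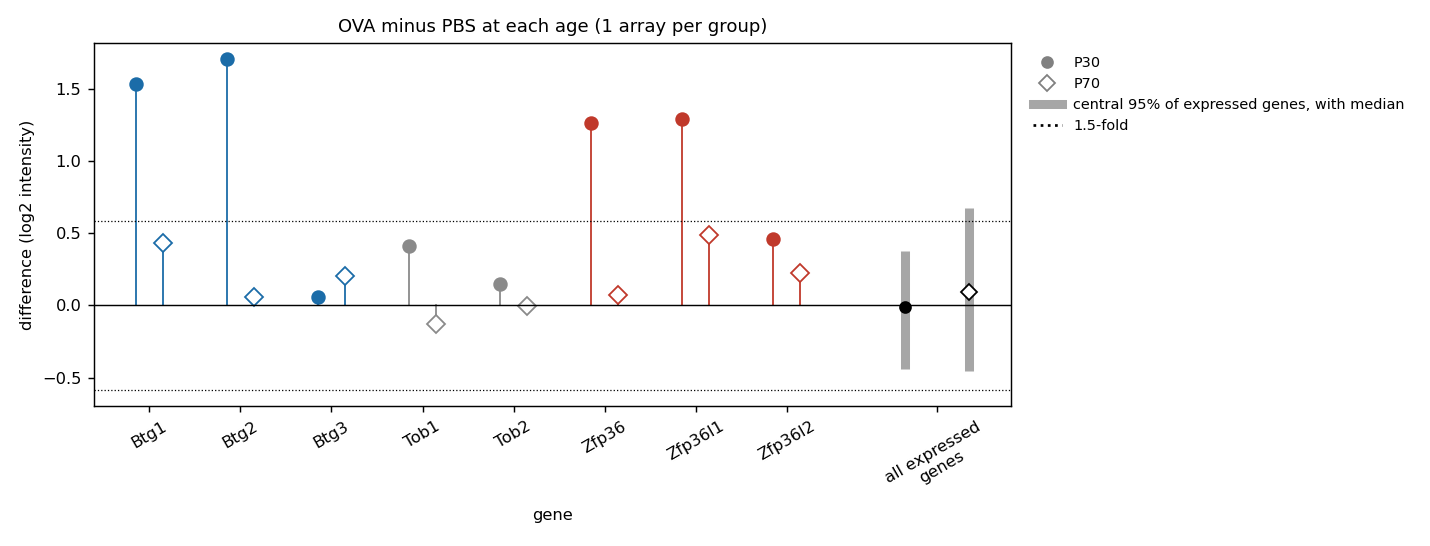
Difference OVA minus PBS in log2 intensity (vertical axis) for each member at P30 (filled circles) and P70 (open diamonds), 1 array per group, with blue for Btg, grey for Tob and red for Zfp36 genes. Grey bars give the central 95% of the 8837 expressed genes with their median, and dotted lines 1.5-fold; Btg1, Btg2, Zfp36 and Zfp36l1 lie above the dotted line at P30, and no member does at P70.

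The OVA difference at P70 minus that at P30 set the ages against each other. It was -1.65 for Btg2, -1.20 for Zfp36, -1.10 for Btg1 and -0.81 for Zfp36l1. These 4 members were the ones at least 1.5-fold apart in the negative direction, where 2.29% of the expressed genes were, and no member was in the positive direction (7.81%). Btg2 ranked 5 from the lowest, Zfp36 16, Btg1 22 and Zfp36l1 85. For Zfp36l2 (-0.24), Tob2 (-0.15) and Btg3 (0.14) it was smaller. After centring each array on its median the 4 values were -1.77, -1.32, -1.22 and -0.93, beside 4.01% of the expressed genes that far negative and 4.46% that far positive; among all genes past 1.5-fold, the share of positive ones went from 77.4% to 52.7%. Whether these differences of differences exceed the variation between pools cannot be told from 1 array per group.

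Age separated the members. In PBS, Btg1 was 2.95-fold lower at P70 (difference -1.56, rank 14 from the lowest) and Zfp36 1.96-fold lower (-0.97, rank 73), the 2 of 8 members that were at least 1.5-fold lower, as 3.03% of the expressed genes were. Btg1 alone was at least 2-fold lower, with 0.758% of the expressed genes. Btg2 (-0.53) and Zfp36l1 (-0.52) came just short of 1.5-fold. Btg3 was 2.29-fold higher, beside 29% of the expressed genes past 1.5-fold in that direction, and Zfp36l2 differed by 0.52 and Tob2 by 0.080. In OVA, 4 members were at least 1.5-fold lower at P70, with 4.41% of the expressed genes: Btg1 by 6.31-fold (-2.66, rank 5), Btg2 by 4.54-fold (-2.18, rank 8), Zfp36 by 4.50-fold (-2.17, rank 9) and Zfp36l1 by a difference of -1.32 (rank 72). Btg3 was 2.53-fold higher, beside 38.6% of the expressed genes past 1.5-fold in that direction.

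The median over all expressed genes was itself higher at P70, by 0.25 in PBS and by 0.38 in OVA. After centring each array on its median, Btg2 (-0.83) and Zfp36l1 (-0.81) joined Btg1 (-1.85) and Zfp36 (-1.27) among the genes at least 1.5-fold lower in PBS, now 8.44% of the expressed genes, and Btg3 was higher by 0.90 (17.4% were at least 1.5-fold higher). In OVA the centred values were -3.07, -2.60, -2.58 and -1.74 for Btg1, Btg2, Zfp36 and Zfp36l1, among 14.1% of the expressed genes, and Btg3 was higher by 0.93 (19.8%). The share of higher genes among those past 1.5-fold went from 90.5% to 67.3% in PBS and from 89.7% to 58.4% in OVA. Zfp36l1 and Zfp36 depended most on the scaling in PBS, where lowess centring gave -1.46 and -1.72 and quantile normalization -0.29 and -1.09. Zfp36l2 in OVA changed sign after median centring, from 0.28 to -0.14, and so did Tob2 in PBS, from 0.080 to -0.21. Neutrophil genes stood higher at the later age: 10 of 11 were at least 1.5-fold higher at P70 in either treatment. Beside them stood 29% of all expressed genes in PBS and 38.6% in OVA. The medians of the neutrophil genes were 2.35 in PBS and 3.67 in OVA. The part of neutrophils in the members' age differences was not tested.

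**Figure D3:**
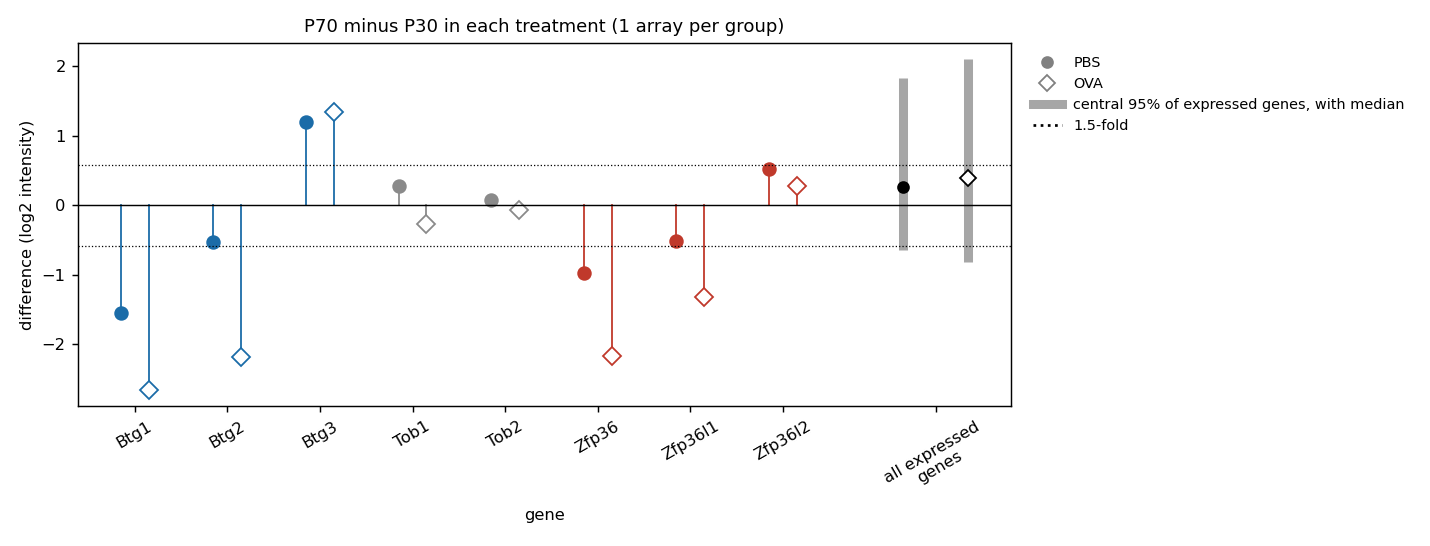
Difference P70 minus P30 in log2 intensity (vertical axis) for each member in PBS (filled circles) and OVA (open diamonds), 1 array per group, with the central 95% and median of the expressed genes as grey bars and 1.5-fold as dotted lines. Btg1, Btg2, Zfp36 and Zfp36l1 lie below 0 in both treatments and further below in OVA, and Btg3 lies above 0.

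The members' profiles over the 4 arrays were then set against those of all expressed genes, as the root-mean-square distance in log2 units after each profile was centred on its own mean. Btg2 and Zfp36 were the closest pair that varied, at 0.19. For Btg2 the closest genes after Zfp36 were Egr1 (0.20) and Rhob (0.20); for Zfp36 they were Rhob (0.14), Egr1 (0.18) and Btg2. Fos (0.25), Rhob (0.30) and Zfp36 (0.31) were closest to Btg1, and Tagap (0.11), Ier2 (0.16) and Egr1 (0.19) to Zfp36l1. Egr1 and Fos encode immediate early transcription factors, Rhob a small GTPase, Ier2 an immediate early protein and Tagap a GTPase-activating protein of lymphocytes. Within a distance of 0.3 lay 6 expressed genes for Btg2, 6 for Zfp36, 8 for Zfp36l1 and 2 for Btg1. Btg3 had 2035, with Tomm70a (0.014), Tti2 (0.018) and Fn1 (0.020) the closest, so its profile was a common one on these arrays. Fos lay under the floor on 3 arrays, Egr1 on both P70 arrays and Ier2 on the PBS array at P70 (7.03).

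A list of immediate early genes known from stimulation or cell isolation stood higher together with these members at P30. The list was chosen with earlier results of these data known, so its gap to the background is no evidence about it. Of its 13 expressed genes, 8 were at least 1.5-fold higher in OVA and none lower, beside 0.656% of all expressed genes. At P70 none was higher, beside 4.04% of all expressed genes. Of the 8, Fos and Atf3 were above the floor on the OVA array at P30 alone, so they counted as expressed through the group where they were high. The other 6 were above it in PBS at P30 too. Among these 6, Egr1 read 7.39 and 8.57 at P30 and 6.63 and 6.85 at P70, PBS first. Its mean reached the floor only with the OVA value at P30, so Egr1 too counted as expressed through that group. Dusp1, a phosphatase of MAP kinases, read 11.52 with PBS and 14.83 with OVA at P30, then 8.75 and 9.29 at P70; Jun read 10.31 and 12.30, then 8.46 and 8.76. The summed intensity of the 21 matched genes was 12239 with PBS against 48612 with OVA at P30, then 9766 against 11136 at P70. In the same comparison 7 of 11 neutrophil markers were at least 1.5-fold lower in OVA at P30, beside 0.917% of all expressed genes. Their median was -1.31. Ttr was higher, and Kcne2 of the same list differed by 0.086. The part of isolation, stimulation or other cells in the members' differences was not tested.

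The enzymes that the members recruit lay close to PBS at P30, as nearly all expressed genes did. None of the 10 expressed CCR4-NOT genes of 12 listed was at least 1.5-fold away from PBS. Over all expressed genes 0.656% were that much higher and 0.917% lower, so this count is near the background. The list's median was 0.025, with a range from -0.13 to 0.40. Cnot1 and Cnot3 of that list were not matched. Cnot2, the brightest gene of the list, stood at 11.28 in PBS and 11.30 in OVA. Cnot9, the subunit also called Rqcd1, was higher by 0.40 at P30 and read 8.34 with PBS and 9.20 with OVA at P70. It was the 1 gene of the list at least 1.5-fold higher at P70 (0.86), where the list's median was 0.16. At P70, 4.04% of all expressed genes were that much higher and 1.24% lower. Of the other deadenylases and poly(A)-binding proteins, none of 8 expressed genes reached 1.5-fold at either age (medians -0.022 and 0.090); Pabpc1, the main cytoplasmic poly(A)-binding protein, was higher in OVA by 0.30 at P30 and 0.29 at P70, Paip1 lower by 0.35 and higher by 0.090, and Paip2 near level at 11.94 and 11.86 at P30.

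Genes of the later steps of decay also lay close to PBS at P30, as nearly all expressed genes did. The background past 1.5-fold at P30 was 0.656% above PBS and 0.917% below it. At P70 these shares were 4.04% and 1.24%. The counts of the decay and regulator lists given here are therefore near the background. Of 16 expressed genes of decapping and decay from the cap end, none was 1.5-fold away at P30 (median -0.0019) and Lsm5 alone was at P70 (0.60), from levels of 6.94 and 6.95 at P30 and 7.24 and 7.84 at P70. Lsm7 was higher by 0.39 at P30, and the helicase Ddx6 was lower by 0.42 at P70. Of 11 expressed genes of the exosome and its SKI helper complex, which degrade from the tail end, none was 1.5-fold away at either age (medians -0.043 and 0.054), with Exosc8 at 0.33 at P30 and Wdr61 at 0.48 at P70. Among 9 other expressed RNA-binding regulators, none was 1.5-fold away at P30 (median -0.067), and Elavl1, which protects AU-rich mRNAs, was the 1 that was higher at P70 (0.65, from 8.90 in PBS to 9.55 in OVA). After centring each array, Elavl1 and Lsm5 no longer reached 1.5-fold. Zc3h12a, the endonuclease Regnase-1, lay below the floor on all arrays and was named after its values were seen.

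These lists were also compared between the ages. In PBS, 5 of 10 CCR4-NOT genes, 7 of 11 exosome genes, 5 of 9 other regulators, 5 of 16 decapping genes and 2 of 8 other deadenylases and poly(A)-binding proteins were at least 1.5-fold higher at P70, beside 29% of all expressed genes, and none was that much lower. In OVA the counts were 8, 7, 7, 7 and 4 in the same order, beside 38.6%. After centring each array they were 4, 6, 4, 4 and 2 in PBS, beside 17.4%, and 4, 5, 4, 2 and 1 in OVA, beside 19.8%. After centring, 1 other regulator was lower in each treatment, and 1 CCR4-NOT gene and 1 other deadenylase or poly(A)-binding protein were lower in OVA. The medians in PBS were 0.62, 0.92, 0.64, 0.42 and 0.33 in that order, and 0.25 for all expressed genes. The background depended on level. With the floor set at percentile 75 of all named genes, 4419 genes remained. Of these, 2081 were at least 1.5-fold higher at P70 in PBS and 2676 in OVA, with medians of 0.54 and 0.75. The lists were not set against genes of like level. Cnot8, a Caf1 deadenylase bound by Btg proteins, read 9.18 and 9.34 at P30 and 10.44 and 10.58 at P70, PBS first; it was named after its values were seen.

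Kinases and phosphatases that act on Zfp36 protein gave 1 large difference. Dusp1, which ends p38 signalling and thereby favours active Zfp36, was the 1 of 8 expressed genes at least 1.5-fold higher at P30 (3.31). Over all expressed genes 0.656% were that much higher. The list's median was 0.080. Mapk14, the p38 alpha kinase, read 10.11 and 9.99 at P30 and 9.99 and 10.12 at P70. Mapkapk2, the kinase that phosphorylates Zfp36, differed by 0.10 at P30 and by 0.58 at P70, just short of 1.5-fold, and the phosphatase subunits Ppp2cb and Ppp2r1a by 0.15 and -0.18 at P30 and by 0.33 and 0.47 at P70.

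Messages with AU-rich elements that are reported Zfp36 targets were measured in the same arrays. This list too was chosen with earlier results known, so its gap to the background is no evidence about it. Of 20 listed, 9 lay below the floor on every array, among them Csf2, Il10, Cxcl1, Cxcl2 and Ptgs2. Among the 11 expressed, 4 were at least 1.5-fold higher in OVA at P30 and none lower, beside 0.656% of all expressed genes: Ccl3 (2.03), Fos (1.96), Il1a (0.76) and Ccl4 (0.71). Fos was above the floor on the OVA array at P30 alone and Ccl4 on the 2 OVA arrays alone, so both counted as expressed through the group where they were high. The chemokine gene Ccl3 read 12.11 and 14.14 at P30 and 11.09 and 12.08 at P70, so that it followed the order of Zfp36. Il1a, which encodes interleukin-1 alpha, read 11.72 and 12.48 at P30 and 12.43 and 13.08 at P70. Tnf, the best known target, was near the floor, at 7.16 and 7.19 at P30 and 7.40 and 7.66 at P70, and Il1b differed by 0.13 and 0.14; both were named after their values were seen. At P70, 4 of the 11 were at least 1.5-fold higher, beside 4.04% of all expressed genes: Ccl3 (0.99), Ccl4 (0.75), Il1a (0.64) and, named after its value was seen, Ccl2 (0.69). Centring each array left 3 of them and put 1 gene at least 1.5-fold lower. The arrays measure levels of mRNA and no decay rates.

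Cell cycle genes, which Btg and Tob proteins restrain, lay close to PBS at P30, as nearly all expressed genes did. None of the 8 expressed of 15 was 1.5-fold away in OVA, with a median of 0.013. Over all expressed genes 0.656% were that much higher and 0.917% lower, so this count is near the background. Mki67, the proliferation marker, was lower by 0.33, from 7.13 to 6.79, both under the floor, and Pcna stood at 11.19 and 11.18. At P70, Mki67 (1.23), Cdk6 (0.65) and Ccnd2 (0.64) were at least 1.5-fold higher in OVA, beside 4.04% of all expressed genes, and Cdk4 was higher by 0.35. Ccnd2 was above the floor on the OVA array at P70 alone, the group where it was high. Mki67 was 8.56 in PBS and 9.79 in OVA at P70. After centring each array, 1 of the 8 was still at least 1.5-fold higher, beside 2.33% of all expressed genes. Border-associated macrophage genes stood higher at P70 too: 6 of 9 expressed were at least 1.5-fold higher in OVA, beside 4.04%. After centring, 5 of them were, beside 2.33%. The summed intensity of that list at P70 was 3930 with PBS and 9986 with OVA. Which cells carried the cell cycle genes was not tested.

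**Figure D4:**
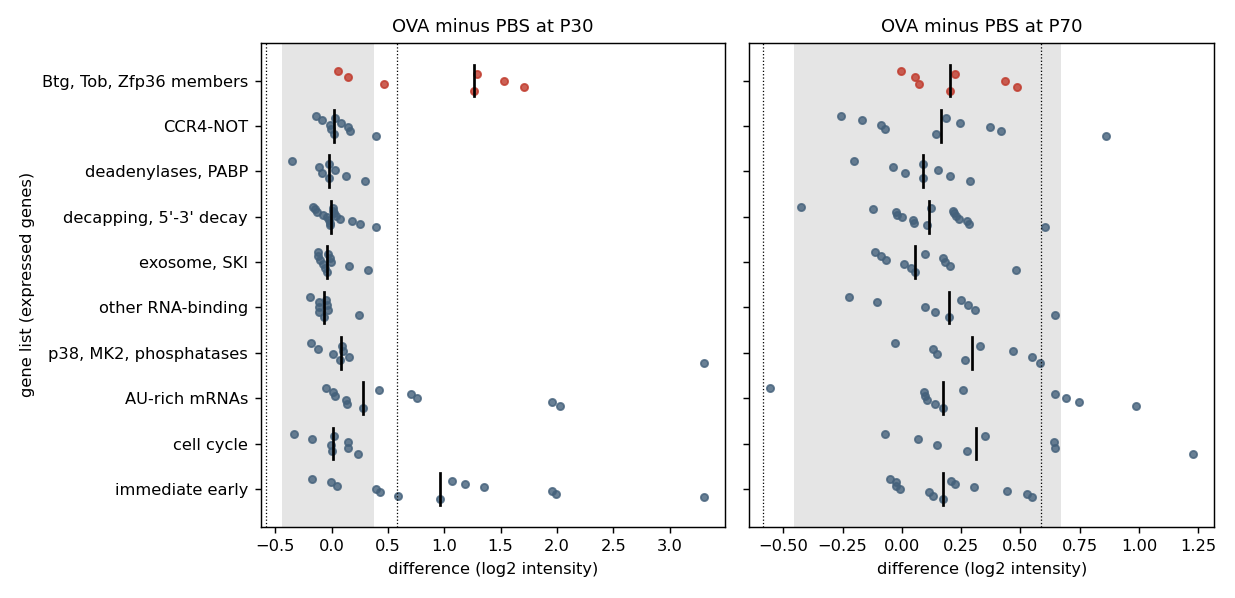
Difference OVA minus PBS in log2 intensity (horizontal axis) at P30 (left) and P70 (right) for the expressed members and the expressed genes of 9 lists of partners, decay factors, regulators, targets and immediate early genes (rows; cell type markers are not plotted), 1 point per gene and 1 array per group, with black bars at list medians; the horizontal scales of the panels differ. The shaded band is the central 95% of all expressed genes and dotted lines are 1.5-fold; among these rows, the points past 1.5-fold at P30 belong to the members, Dusp1, the AU-rich list and the immediate early list.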

How the data were processed

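Microglia from 4 groups were measured on 1-colour expression arrays, 1 array per group. The authors deposited 1 normalized and summarised intensity for each probe set on each array, not log-transformed; per the submitters' processing notes, RMA and Affymetrix Expression Console 1.4.1 were used, with no role given for either. How arrays were scaled to each other, and the genome build, are not given in the sources used here.

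Log2 values were taken and nothing else was normalized. The platform annotation gave 1 gene symbol to 30604 of the 65956 probe sets, several to 2146 and none here to 33206; 827 symbols were updated through Entrez IDs with the RefSeq table of GRCm38.p6, used for names. Left out were 12694 probe sets of antigen receptor segments, olfactory or vomeronasal receptors, small RNAs and genes that are predicted or named by clone. The brightest probe set stood for each of 195 genes with several. Differences between arrays were counted at 1.5-fold. Alternatives were other filters on dim genes, normalizations, probe set rules, an offset of 32, and 2-fold. The code that counts genes past 1.5-fold was checked on simulated data. Python 3.11.15, pandas 2.3.3 and statsmodels 0.14.6 were used.

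The members and the 21 gene lists (244 symbols) were chosen with earlier results of these data known. Gaps between a list and the share over all expressed genes are therefore no evidence about the list. Named genes were all members and close relatives; up to 4 expressed genes of each list by size of the OVA difference at either age, and up to 2 by mean level; and, for each member spanning at least 1 log2 unit, the 3 genes with the closest profile.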

Additional observations from a re-analysis of the deposited data

Results flagged for a closer look

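Tob1 and Tob2 had OVA differences of opposite sign at the 2 ages in the values as deposited. In Tob1 the difference was 0.41 at P30 and -0.13 at P70, so that the later minus the earlier came to -0.54, between levels that were all below the floor. In Tob2 it was 0.15 at P30 and -0.0056 at P70, a change of -0.15, and its sign at P70 was positive after quantile normalization (0.060) and lowess centring (0.030). With 1 array per group, neither change was tested.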

How the results depend on the processing

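Of 90 counts of members recomputed under other settings, 86 stayed within 1.5 times the reported count, and the 4 that did not concern P70 minus P30 in PBS. There, 4 members rather than 2 were at least 1.5-fold lower after median centring and after lowess centring along the level, 1 was at least 2-fold lower, and 2 members rather than 1 were at least 1.5-fold higher after quantile normalization, which brought Zfp36l2 to 0.62. Of 280 values of single members, none past 1.5-fold changed sign or lost that size, and 5 newly reached it. At P30 the OVA differences ranged from 1.61 to 1.86 for Btg2, 1.48 to 1.59 for Btg1, 1.24 to 1.32 for Zfp36 and 1.29 to 1.35 for Zfp36l1 over the settings. The age differences moved more. In PBS they ranged from -2.21 to -1.51 for Btg1, -0.83 to -0.47 for Btg2, -1.72 to -0.95 for Zfp36, -1.46 to -0.29 for Zfp36l1 and 0.75 to 1.20 for Btg3, and in OVA from -3.69 to -2.61, -2.76 to -2.03, -3.23 to -2.14, -2.48 to -1.10 and 0.67 to 1.34. The OVA differences at P70 of Btg2, Btg3, Zfp36 and Tob2 took both signs. The stricter filter kept fewer members, and the filters do not change a member's value. Nor does the mean of all probe sets, because each member had 1, so many of the 280 values could not move. Tob1, which was not expressed, is not among the values after centring or normalization. No paired analysis was possible because each group has 1 array, so that its replicate number pairs nothing. Leaving out an array removes its group, so no comparison that uses that group can be repeated without it. Over all expressed genes, counts past 1.5-fold differed by over 1.5 times under some settings. They were 357 higher at P70, and 206 and 174 after median and lowess centring; 110 lower, and 183 and 167 (65 after quantile normalization); for age in PBS 2565 higher, 1536 and 1025, and 268 lower, 746 and 780; in OVA 3409 higher, 1751 and 1175, and 390 lower, 1248 and 960; for the difference of OVA effects 690 positive, 394 and 350, and 202 negative, 354 and 312. With no filter on dim genes, 101 were higher at P30 (58 with it), and 218 were lower at P70, 753 and 1319 with age in PBS and OVA, and 462 in the difference. The stricter filter gave 38 higher at P30, 49 lower at P70, 104 and 118 lower with age, and 88 negative. The filter on the highest array gave 593 lower with age in OVA. At 2-fold they were 16 higher and 18 lower at P30, 43 and 18 at P70, 1194 and 67 for age in PBS, 1744 and 145 in OVA, and 119 and 34 for the difference. Levels near the floor, as in Tob2, carry little signal over background.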
